A study of Mus musculus with 72 samples.

Results

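The genes described here encode the heat shock proteins and the DNAJ cochaperones of mouse early secondary ovarian follicles. Members were chosen by symbol. They were the Hspa genes without Hspa5, the Hspb and Hsp90 genes, the Dnaja, Dnajb and Dnajc genes, and Hspd1, Hspe1, Hsph1 and the transcription factor gene Hsf1. The symbol patterns matched 77 of 56691 gene identifiers. Hspa5 and 4 pseudogenes were left out, which gave 72 members. Of these, 13 belong to the HSP70 and HSP110 group, 3 to HSP90, 8 to the small heat shock proteins and 2 to the mitochondrial chaperonin, and 4, 13 and 28 to the DNAJA, DNAJB and DNAJC classes, with Hsf1 as the remaining member.

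Follicles, each an oocyte enclosed by granulosa cells, were cultured for 24 h with or without follicle-stimulating hormone (FSH), and messenger RNA was sequenced. FSH21 is the hypoglycosylated and FSH24 the fully glycosylated form of the hormone, and the study asked how these glycoforms act on the transcriptome. There were 6 groups of 3 libraries. FSH21 or FSH24 at 1 ng/ml was given to libraries numbered 1, 5 and 6, FSH21 or FSH24 at 10 ng/ml to libraries numbered 2, 3 and 4, and untreated follicles made up a group of each set of numbers. All 6 groups shared the same serum-free growth medium with albumin, fetuin and an insulin, transferrin and selenium supplement. The strain and age of the mice, and whether follicles of several mice were pooled, are not given in the sources used here. Libraries of a group are called biological replicates, with no animal or culture named for each. Every p-value therefore measures the spread between these libraries alone, which may in part be technical. Dose and number set cannot be told apart in the treated libraries, and each treated group was compared with the untreated libraries of its own numbers.

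Chaperones bind unfolded protein chains. HSP70 proteins do so in cycles of ATP binding and hydrolysis, DNAJ proteins bring them their clients and start the hydrolysis, and HSP110 proteins exchange the nucleotide. HSP90 finishes the folding of kinases and steroid receptors, small heat shock proteins hold aggregating chains without ATP, and the chaperonin of HSPD1 and HSPE1 folds proteins inside mitochondria. HSF1 induces many of these genes after heat or other stress by binding repeats of the sequence nGAAn, the heat shock element. In the ovary the proteins serve steroid receptors, the secretory load of granulosa cells and the protein stores of the growing oocyte.

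Library totals were between 17.5 and 22.5 M expected counts (M, mega), with a median of 21.4 M, and 18727 of the 36330 genes with a count passed the filter on low counts. The filter was passed by 68 members. Dnajb7, Dnajb8, Hspb3 and Hspb9 did not pass it, with 15, 3, 1 and 35 counts over the 18 libraries. Levels are given as CPM, counts scaled to the same library total, and between genes as CPM per kb of exon. A gene is called changed when its adjusted p in edgeR's quasi-likelihood test, over all 18727 genes, was under 0.05. The summed CPM of 9 oocyte markers was 4428 to 4655 in the untreated libraries 2, 3 and 4, against 3895 to 4385 with FSH21 and 3923 to 4171 with FSH24 at 10 ng/ml. None of the 9 was called changed at 10 ng/ml, although all 9 were lower with both forms. All 9 were also higher in untreated libraries 2, 3 and 4 than in untreated libraries 1, 5 and 6, without a call. In untreated libraries 1, 5 and 6 the sum was 3644 to 4280, a range that overlaps those of both treated groups. The cause of the lower sums was not tested. The sum of 9 theca and stroma markers was 2585 to 4113 in untreated libraries 2, 3 and 4. It was 2421 to 3231 with FSH21 and 2581 to 3671 with FSH24 at 10 ng/ml. That of 8 granulosa markers was 4739 to 5977, 5730 to 6187 and 5362 to 5820 in these 3 groups. Single genes weigh heavily in these sums. Over the 18 libraries Col1a1 and Col1a2 of the theca and stroma list had means of 1656 and 1300 CPM. Inha of the granulosa list had a mean of 3168 CPM. A list of 6 surface epithelium markers, keratin and mesothelial genes, reached 36.6 to 49.8 CPM untreated, 80.1 to 82.1 with FSH21 and 73.5 to 83.8 with FSH24. Of the granulosa markers, Kitl, Foxl2 and Cyp19a1 rose and Esr2 fell with FSH21, and Kitl and Foxl2 rose and Esr2 fell with FSH24. Cyp17a1 of the theca and stroma list and Krt8 of the surface epithelium list rose with both forms, and all these genes were named after their values were seen. Immune markers summed to at most 2.32 CPM and red cell genes to at most 0.871 CPM in any library, with 1 to 3 of the 4 red cell genes at 0 in every group. The part of these cell types in the results below was not tested, and in such bulk samples fewer cells of a type cannot be told apart from less RNA per cell.

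The 3 HSP90 genes and Hspa8 led the members. On the scale of mean CPM per kb over the 18 libraries, Hsp90ab1, the constitutive cytosolic HSP90, stood at 742, and Hsp90b1, the HSP90 of the endoplasmic reticulum, at 362. Hsp90aa1, the inducible cytosolic HSP90, was at 274, next to Hspa8, the constitutive HSP70, at 267. These 4 genes were followed by Hspd1 at 120, by Hspa9, the mitochondrial HSP70, at 99.1, and by Hspa4, an HSP110 protein, at 76.7. The stress-inducible HSP70 genes Hspa1b and Hspa1a were far lower, at 11.1 and 8.21, and the testis-type HSP70 genes Hspa2 and Hspa1l were at 3.77 and 0.489.

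Of the cochaperones, Dnaja2 and Dnaja1, the main partners of cytosolic HSP70, had mean levels of 67.9 and 35.8 CPM per kb. Before division by exon length Dnaja1 was the higher, at 308.5 CPM against 202 CPM. The mitochondrial Dnaja3 was at 16.4. In the DNAJB class Dnajb11, of the endoplasmic reticulum, was highest at 34.4, before Dnajb1, a partner of HSP70 in the heat shock response, at 27.5 and Dnajb6, which holds back aggregation, at 26.0. The DNAJC class was led by Dnajc8 at 40.6, Dnajc7 at 34.8 and Dnajc3 at 32.8 CPM per kb. Before division by exon length Dnajc11 was the highest of the class, at 223 CPM with 10678 exon bases. Hspb1 was the highest small heat shock protein gene at 16.9, before Hspb6 at 5.20 and Hspb8 at 4.59, and Hsf1 stood at 8.08. The spread between libraries was smallest among the abundant cochaperones. Over all 18 libraries, the coefficient of variation was 3.24% for Dnaja3, 3.66% for Dnajb6 and 3.67% for Dnaja2, against 24.0% for Hspb8 and 19.5% for Hspa2.

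**Figure D1:**
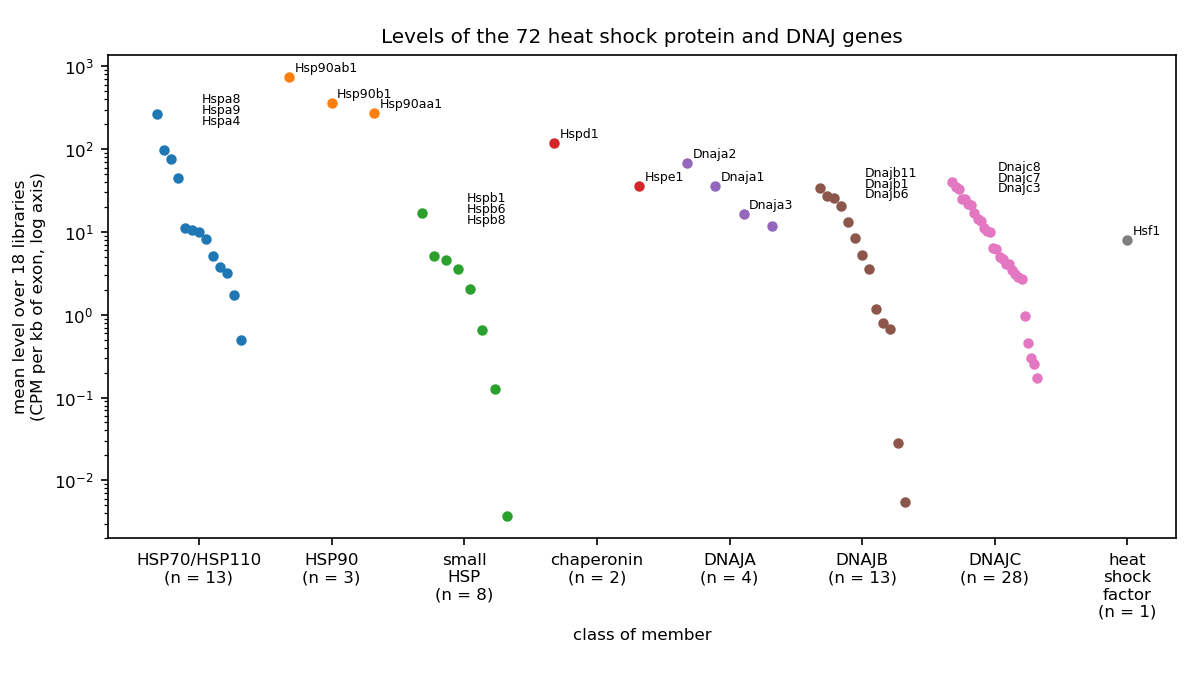
Mean level over the 18 libraries, in CPM per kb of exon on a log axis, for each of the 72 members (points), ranked from left to right within each class. The 3 highest of each class are named in their order, and the HSP90 genes lie between 274 and 742, above every member of the other classes.

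At 10 ng/ml both forms of FSH changed a small group of members by modest amounts. With FSH21, 9 members rose and 1 fell, and with FSH24, 6 rose and 1 fell. The 10 called with FSH21 were Hspa2, Hspb8, Hspa1b, Hspa13, Dnajc10, Hspa1a, Hspa4l, Dnajb2 and Dnajb12, all higher, and Hspd1, lower. The 7 called with FSH24 were Hspa2, Hspa1b, Hspa1a, Hspa4l, Hspa13 and Dnajc10, all higher, and Hspd1, lower. All 7 are also in the first list, and the comparisons share their untreated libraries. Over all genes tested, 10.2% were called with FSH21 and 8.42% with FSH24, against 14.7% and 10.3% of the 68 members. In one direction, 5.96% of all genes were called higher and 4.22% lower with FSH21, and 5.12% higher and 3.30% lower with FSH24. DESeq2 called 15 members with FSH21 (22.1%, against 12.3% of all genes) and 8 with FSH24 (11.8%, against 10.4%). The median log2 fold change of the 68 members was 0.01 with FSH21 and 0.03 with FSH24, with 36 of 68 above 0 in each comparison, and that of all genes was 0.00 in both. Treated and untreated libraries did not overlap in CPM for 31 members with FSH21 (45.6%, against 27.7% of all genes) and for 16 members with FSH24 (23.5%, against 24.5%).

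The number of members called depended on single libraries. Without 1 of the 6 libraries at a time it was between 5 and 9 for FSH21 and between 3 and 7 for FSH24. It was lowest without FSH21 library 4 or untreated library 4, at 5 each, and for FSH24 without FSH24 library 2, at 3. For FSH21 it was 6 without FSH21 library 3 or untreated library 3, and for FSH24 it was 4 without FSH24 library 4 or untreated library 4.

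**Figure D2:**
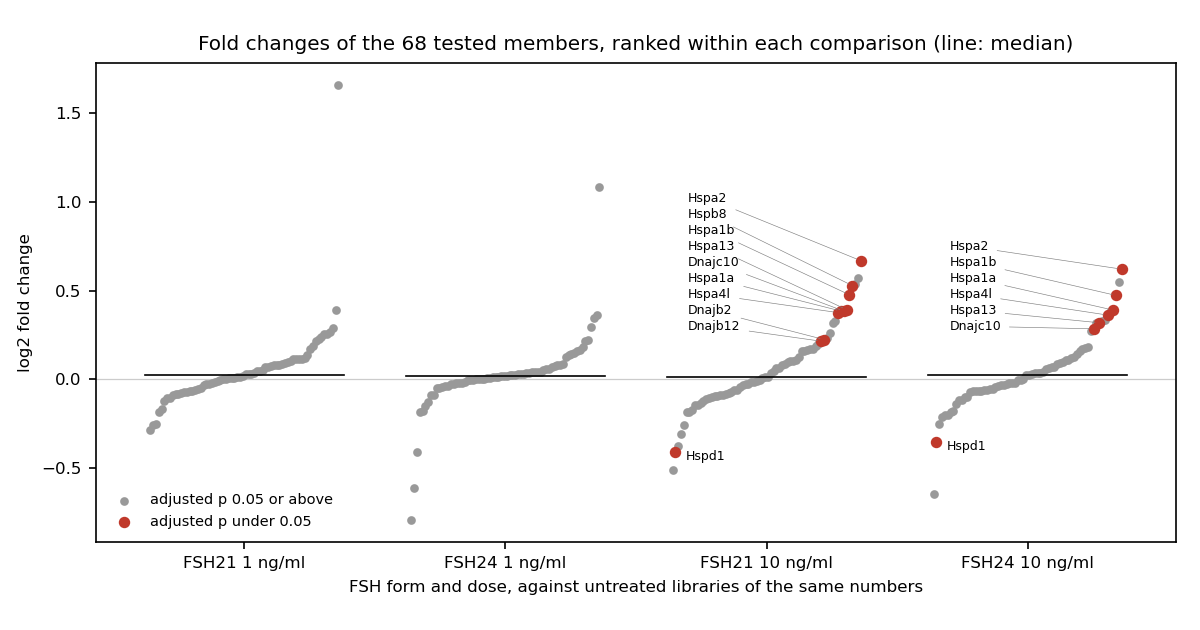
Log2 fold change of each of the 68 tested members against the untreated libraries of the same numbers, ranked within each of the 4 treatment comparisons, with the median as a line. Named points in red had an adjusted p under 0.05, and at 10 ng/ml they number 10 with FSH21 and 7 with FSH24, while the lower dose shows 0.

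By class, 5 of the 13 HSP70 and HSP110 genes rose with each form at 10 ng/ml, among them the near-identical copies Hspa1a and Hspa1b. The main edgeR fit called none of the 13 lower. Of all genes tested, 5.96% were called higher and 4.22% lower with FSH21, and 5.12% and 3.30% with FSH24. DESeq2 called Hspa8 lower with both forms and Hspa12a lower with FSH21 (adjusted p = 0.0434). All 13 HSP70 and HSP110 genes were also lower in untreated libraries 2, 3 and 4 than in untreated libraries 1, 5 and 6. None of these differences was called. The rises at 10 ng/ml were measured from the lower of these untreated groups. The part of this lower baseline in the rises was not tested. None of the 3 HSP90 genes and none of the 4 DNAJA genes was called. Of 11 tested DNAJB genes, 2 rose with FSH21 and 0 with FSH24, of 28 DNAJC genes 1 rose with each, and of 6 tested small heat shock protein genes 1 rose with FSH21. Sorted by place and use, 3 of 14 members of the endoplasmic reticulum rose with FSH21 and 2 with FSH24. Of 10 mitochondrial members 1 fell with each form. Of 12 members listed as heat-inducible, 3 rose with each form, the copies Hspa1a and Hspa1b and Hspa4l, and 1, Hspd1, fell. The others of this list were Hsph1, Hsp90aa1, Hspb1, Hspe1, Dnajb1 and Dnaja1, and also Hspa8 and Hsp90ab1, which are constitutive. The median log2 fold change of the 12 was −0.01 with either form.

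Hspa1a and Hspa1b encode the major inducible HSP70 of the cytosol. They lie as near-identical copies on chromosome 17 of GRCm38, Hspa1b at 34956436 to 34959238 and Hspa1a at 34969190 to 34972156, both on the minus strand, so that reads could be split between them and each single value is uncertain. Hspa1a also shares exon bases with Gm20481 on the opposite strand, and the use of strand in the counting is not given in the sources used here. Their promoters, shown because both copies moved together and because these stretches hold 1 heat shock core each, are the 200 bases before the start from RefSeq's GRCm38.p6. The capitals mark the core of 2 units, GAA NN TTC with N for any base. Hspa1a covers chr17:34972157-34972356 and Hspa1b chr17:34959239-34959438, both read on the minus strand.
Hspa1a: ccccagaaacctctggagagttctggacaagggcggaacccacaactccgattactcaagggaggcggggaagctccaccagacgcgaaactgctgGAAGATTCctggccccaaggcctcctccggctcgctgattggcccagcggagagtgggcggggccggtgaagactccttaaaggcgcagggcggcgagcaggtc
Hspa1b: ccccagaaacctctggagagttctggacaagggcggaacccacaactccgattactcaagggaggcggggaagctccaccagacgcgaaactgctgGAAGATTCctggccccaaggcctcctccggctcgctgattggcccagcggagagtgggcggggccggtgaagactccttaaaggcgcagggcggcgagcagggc
Over the 300 bases of the RefSeq windows, from 250 before to 50 after the start, the copies differ at 4 positions, 3 of them before the start.

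Hspa1b stood at 22.6, 24.3 and 28.5 CPM in the untreated libraries 2, 3 and 4, at 34.8, 34.9 and 35.4 CPM with FSH21 and at 31.5, 32.5 and 40.8 CPM with FSH24 at 10 ng/ml. All 6 treated libraries were above the 3 untreated ones. Hspa1b rose by 39.2% with FSH21 (log2 fold change 0.48, SE 0.12, adjusted p = 0.0177) and by 38.8% with FSH24 (0.47, SE 0.12, adjusted p = 0.0211). Hspa1a was at 19.4, 22 and 21.1 CPM untreated, at 22.6, 28.8 and 30.2 CPM with FSH21 and at 25.9, 28.6 and 27.5 CPM with FSH24. Again the groups did not overlap, although FSH21 library 2 was close to the untreated level. Hspa1a rose by 30.6% with FSH21 (0.39, SE 0.10, adjusted p = 0.0154) and by 31.1% with FSH24 (0.39, SE 0.10, adjusted p = 0.0161). With the counts of both copies added, the log2 fold change was 0.42 (SE 0.09) with either form, at adjusted p = 0.00314 with FSH21 and 0.00409 with FSH24. For the single copies the calls were less secure. With FSH21 Hspa1b lost its call without FSH21 library 2 or 4 or untreated library 2 or 3 (adjusted p up to 0.0906), and Hspa1a without FSH21 library 3 or 4 or untreated library 2 or 4 (up to 0.105). With FSH24 Hspa1b lost it without FSH24 library 4 or untreated library 2 or 3 (up to 0.165), and Hspa1a without FSH24 library 3 or 4 or untreated library 2 or 4 (up to 0.0910).

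Hspa2 and Hspa4l, known for their roles in male germ cells, also rose. Hspa2, an HSP70 needed in spermatogenesis (chromosome 12, 76404176 to 76406938, plus strand), had low levels. It stood at 8.28, 6.88 and 7.91 CPM in the untreated libraries 2, 3 and 4, at 13.8, 10.4 and 12.5 CPM with FSH21 and at 13.5, 10.2 and 11.8 CPM with FSH24. Library 3 was the lowest of its group in all 3 groups, and treated and untreated libraries did not overlap. The rise of Hspa2 was 59.1% with FSH21 (log2 fold change 0.67, SE 0.15, adjusted p = 0.00517) and 53.9% with FSH24 (0.62, SE 0.15, adjusted p = 0.0106). With FSH21 the call of Hspa2 held without each library in turn, and with FSH24 it was lost without FSH24 library 2 or untreated library 3 (adjusted p up to 0.0814). Of the other tested germ cell members, Hspa1l, Dnajb3, Dnajb13, Dnajc5b and Dnajc5g were not called.

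Hspa4l, an HSP110-type nucleotide exchange factor (chromosome 3, 40744495 to 40796103, plus strand), was at 52.6, 56.5 and 50.7 CPM untreated, at 72.1, 65.9 and 69.6 CPM with FSH21 and at 72.5, 61.7 and 71.4 CPM with FSH24. No treated library was as low as an untreated one. Hspa4l rose by 29.8% with FSH21 (log2 fold change 0.38, SE 0.09, adjusted p = 0.00686) and by 28.6% with FSH24 (0.36, SE 0.09, adjusted p = 0.0108). The FSH21 call was lost without untreated library 4 (adjusted p = 0.0592), and the FSH24 call without FSH24 library 2 or 4 or untreated library 4 (up to 0.0857). Its relatives of the HSP110 group, Hspa4 and Hsph1, were not called, with log2 fold changes of −0.07 and −0.11 with FSH21 and −0.06 for both with FSH24.

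Dnajc10 and Hspa13 gave the smallest adjusted p-values of the members, and both proteins work in or at the endoplasmic reticulum. DNAJC10 is a reductase that opens disulfide bonds of misfolded proteins there. Its gene (chromosome 2, 80315466 to 80354043, plus strand) was at 109, 114 and 109 CPM in the untreated libraries 2, 3 and 4, at 147, 144 and 143 CPM with FSH21 and at 142, 133 and 130.3 CPM with FSH24. The lowest treated library was thus well above the highest untreated one, and the 3 FSH21 libraries lay close together. Dnajc10 rose by 30.6% with FSH21 (log2 fold change 0.39, SE 0.06, adjusted p = 0.000343) and by 21.9% with FSH24 (0.29, SE 0.06, adjusted p = 0.00545). The FSH21 call held without each library in turn, and the FSH24 call was lost without FSH24 library 2 (adjusted p = 0.0524). The 200 bases before the Dnajc10 start (chr2:80315266-80315465, plus strand, GRCm38.p6, RefSeq) are shown because this was the clearest rise, with the only core of 2 heat shock units, here in the order TTC NN GAA, in capitals.
Dnajc10: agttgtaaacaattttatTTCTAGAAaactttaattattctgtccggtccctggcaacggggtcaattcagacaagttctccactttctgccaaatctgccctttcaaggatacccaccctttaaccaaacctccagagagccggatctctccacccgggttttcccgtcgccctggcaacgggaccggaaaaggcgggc

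HSPA13 is an HSP70 of the microsomal fraction. Hspa13 (chromosome 16, 75745431 to 75767104, minus strand) was at 68.7, 63.4 and 58.3 CPM untreated, at 82.9, 84.8 and 82.5 CPM with FSH21 and at 78.8, 84.4 and 74.4 CPM with FSH24. The untreated libraries spread more widely than the FSH21 libraries, and the groups did not overlap. Hspa13 rose by 31.4% with FSH21 (log2 fold change 0.39, SE 0.07, adjusted p = 0.00157) and by 24.8% with FSH24 (0.32, SE 0.07, adjusted p = 0.00970). Without untreated library 4 the FSH24 call was lost (adjusted p = 0.101), while the FSH21 call held without each library.

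Of the other endoplasmic reticulum members, Dnajb12, which sits in the membrane and helps clear misfolded membrane proteins, rose with FSH21. Dnajb12 was at 69.3, 61.7 and 62.3 CPM untreated, at 74.7, 75.0 and 74.8 CPM with FSH21 and at 73.9, 67.9 and 77.1 CPM with FSH24. The FSH24 group overlapped the untreated one. The log2 fold change was 0.22 with FSH21 (SE 0.06, adjusted p = 0.0210) and 0.18 with FSH24 (SE 0.06, adjusted p = 0.0627). The FSH21 call was lost without any 1 of FSH21 libraries 2, 3 and 4 or untreated libraries 3 and 4 (adjusted p up to 0.159). The members most often used as readouts of endoplasmic reticulum stress were not called, although the FSH21 libraries of Hsp90b1 and Dnajb11 all lay above the untreated ones. Such stress was not tested. Hsp90b1 had log2 fold changes of 0.17 and 0.12 with FSH21 and FSH24 (adjusted p = 0.268 and 0.481), Dnajb11 0.16 and 0.04, and Dnajc3, which binds the kinase PERK, −0.01 and −0.06. For Dnajb9, a partner of the lumenal HSP70, the values were 0.07 and −0.02. The median over all 14 endoplasmic reticulum members was 0.17 with FSH21 and 0.05 with FSH24.

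Dnajb2, a cytosolic cochaperone with ubiquitin-binding motifs, rose with FSH21 by a small and even amount. It was at 34.2, 33.1 and 34.8 CPM untreated, at 39.5, 39.7 and 40.1 CPM with FSH21 and at 37.9, 38.5 and 38.6 CPM with FSH24, and every treated library was above every untreated one. The log2 fold change was 0.22 with FSH21 (SE 0.06, adjusted p = 0.0145) and 0.17 with FSH24 (SE 0.06, adjusted p = 0.0722). Without any 1 of the 6 libraries the FSH21 call was lost (adjusted p up to 0.0888).

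**Figure D3:**
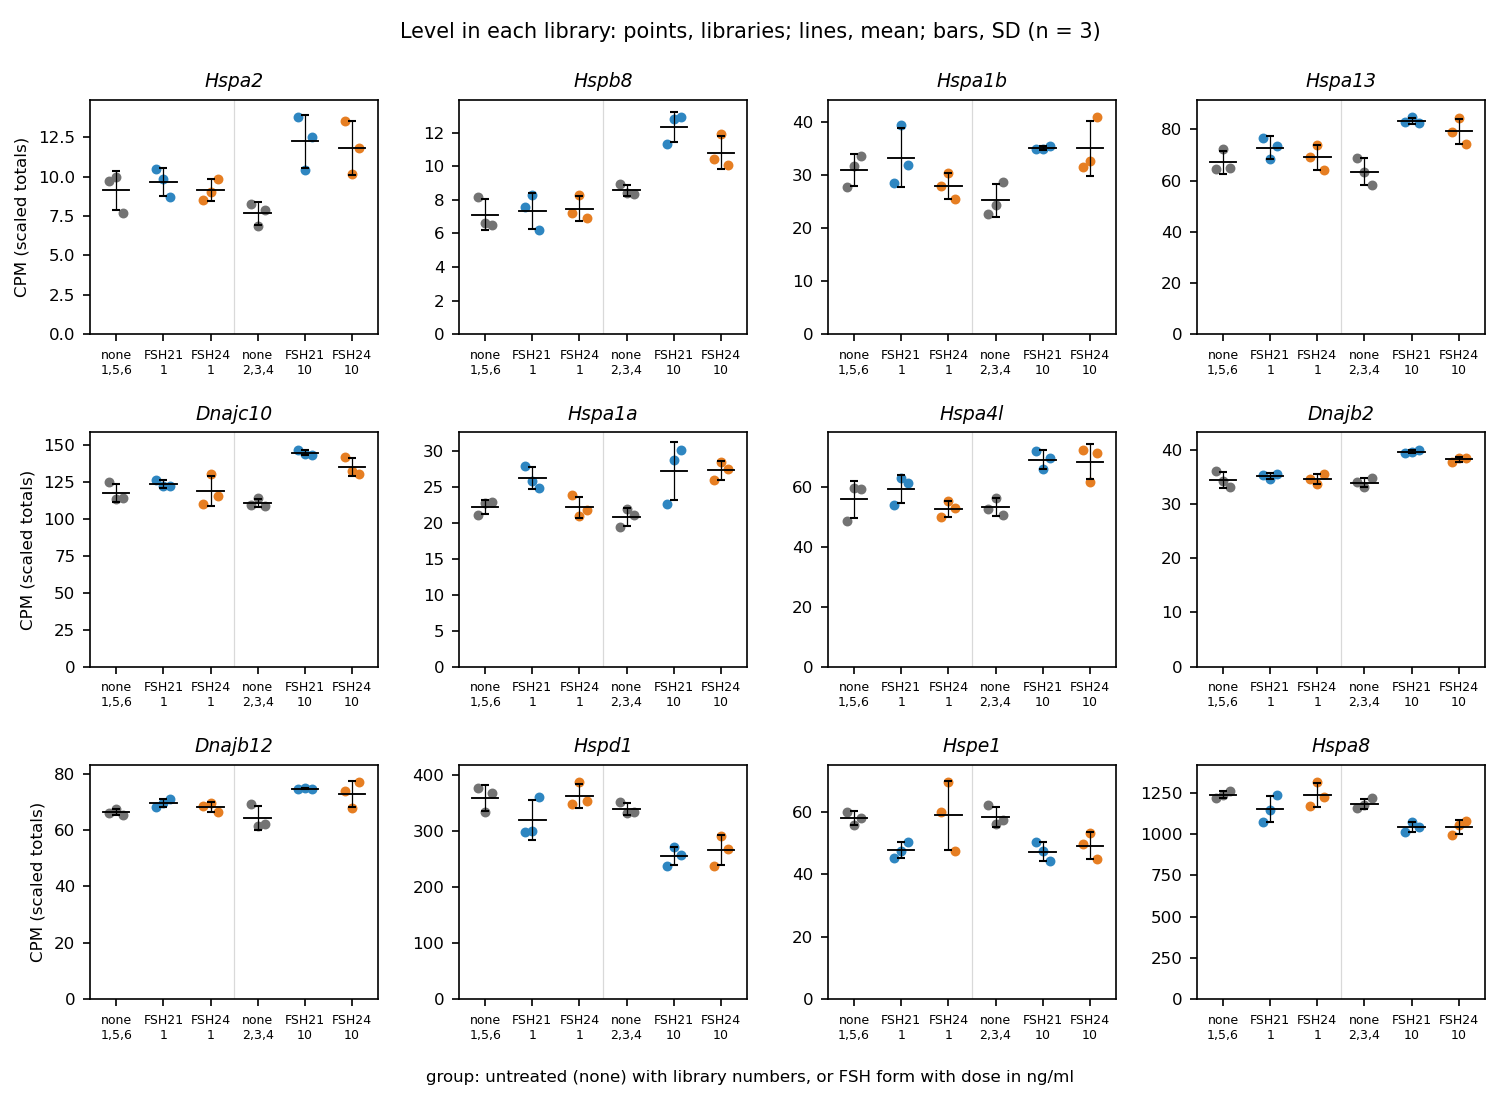
CPM in each library (points), with group mean (line) and SD (bar, n = 3), for the 10 called members and for Hspe1 and Hspa8, with axes from 0. On the right of each panel the 10 ng/ml libraries of Hspa2, Hspa1b, Hspa13, Dnajc10, Hspa1a and Hspa4l lie above and those of Hspd1 below the untreated libraries 2, 3 and 4, while at 1 ng/ml, on the left, no gene was called.

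The only member called lower in the main edgeR fit was Hspd1, the large subunit of the mitochondrial chaperonin (chromosome 1, 55077835 to 55088243, minus strand). It was at 351, 333 and 334 CPM in the untreated libraries 2, 3 and 4, at 238, 271 and 258 CPM with FSH21 and at 238, 292 and 268 CPM with FSH24. All 6 treated libraries were below all 3 untreated ones, with library 2 the lowest of each treated group. Hspd1 fell by 24.7% with FSH21 (log2 fold change −0.41, SE 0.09, adjusted p = 0.00365) and by 21.7% with FSH24 (−0.35, SE 0.09, adjusted p = 0.0125). The FSH21 call held without each library, and the FSH24 call was lost without FSH24 library 2 (adjusted p = 0.0616).

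Hspe1, the lid of the same chaperonin, was at 62.1, 56.0 and 57.3 CPM untreated, at 50.2, 47.3 and 44.2 CPM with FSH21 and at 49.7, 53.1 and 44.8 CPM with FSH24. The groups did not overlap, but the test was not passed. The log2 fold change was −0.31 with FSH21 (SE 0.10, adjusted p = 0.0683) and −0.25 with FSH24 (SE 0.10, adjusted p = 0.164). DESeq2 called Hspe1 lower with FSH21 (adjusted p = 0.0412). So did edgeR without the filter (adjusted p = 0.0307) and edgeR on only the groups compared (adjusted p = 0.0316). Hspd1 and Hspe1 are read in opposite directions. In the GENCODE models their exons share bases on opposite strands, so reads there cannot be told apart. RefSeq gives Hspd1 a start 216 bases from that of Hspe1, and between these starts lie 2 overlapping matches of the heat shock element of 3 units, which together make 4 units. The start of the GENCODE model of Hspd1, at 55088243, lies beyond them. A second RefSeq window of Hspd1, 55088194 to 55088493, covers that start and holds no heat shock element. The stretch around the matches is shown because it lies in RefSeq promoter windows of both genes, at chr1:55088053-55088082 in GRCm38.p6 (RefSeq), read on the minus strand for Hspd1 and on the plus strand for Hspe1, with the cores of 2 units in capitals.
Hspd1: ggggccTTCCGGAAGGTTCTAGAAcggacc
Hspe1: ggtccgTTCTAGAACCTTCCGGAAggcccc
The other mitochondrial members did not pass the test. Hspa9, which pulls proteins through the inner membrane, had log2 fold changes of −0.10 and −0.14 with FSH21 and FSH24 (adjusted p = 0.382 and 0.214), and Dnaja3, its partner, −0.01 and 0.02. Over the 10 mitochondrial members the median was −0.01 with FSH21 and 0.00 with FSH24.

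Hspa8, the cytosolic HSP90 genes, Dnajb1 and Hsf1 were not called in the main edgeR fit. Hspa8 was at 1161, 1173 and 1216 CPM in the untreated libraries 2, 3 and 4, at 1011, 1072 and 1042 CPM with FSH21 and at 996, 1056 and 1080.4 CPM with FSH24. The groups did not overlap, and the log2 fold change of −0.18 (SE 0.06) with either form had an adjusted p of 0.0727 with FSH21 and 0.0902 with FSH24. With DESeq2 the fall of Hspa8 passed the test (adjusted p = 0.00733 with FSH21 and 0.00940 with FSH24). With FSH21 it also passed in edgeR when the counts of Hspa1a and Hspa1b were added (adjusted p = 0.0462). Hsp90ab1 had log2 fold changes of −0.09 and −0.06 with FSH21 and FSH24 (SE 0.06 each), and Hsp90aa1 −0.03 and −0.02 (SE 0.07 each). Dnajb1, among the most strongly heat-induced genes of most cells, was at 93.4, 91.1 and 81.8 CPM untreated, 88.6, 95.6 and 90.6 CPM with FSH21 and 94.4, 87.7 and 84.6 CPM with FSH24. These ranges overlap, and its log2 fold changes were 0.04 and 0.00. Hsf1 itself was at 57.9, 57.8 and 59.2 CPM untreated, 53.2, 52.3 and 50.0 CPM with FSH21 and 53.4, 55.7 and 59.1 CPM with FSH24. Only the FSH21 libraries lay below all untreated ones, and neither log2 fold change passed the test (−0.17, SE 0.06, adjusted p = 0.0883 with FSH21 and −0.06, SE 0.06, adjusted p = 0.689 with FSH24).

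Small heat shock proteins were low in these follicles. HSPB8 works with BAG3 in the removal of aggregates by autophagy. Hspb8 (chromosome 5, 116408491 to 116422864, minus strand) was at 8.94, 8.39 and 8.37 CPM in the untreated libraries 2, 3 and 4, at 11.3, 12.8 and 12.9 CPM with FSH21 and at 10.5, 11.9 and 10.1 CPM with FSH24. Every treated library was higher than every untreated one. Hspb8 rose by 44.3% with FSH21 (log2 fold change 0.53, SE 0.14, adjusted p = 0.0159), and with FSH24 the log2 fold change was 0.34 (SE 0.14, adjusted p = 0.152). Without any 1 of FSH21 libraries 3 and 4 or untreated libraries 3 and 4 the FSH21 call was lost (adjusted p up to 0.0754). Untreated Hspb8 differed between the number sets as well, at 8.20, 6.65 and 6.52 CPM in libraries 1, 5 and 6, although that difference was not called (log2 0.27, SE 0.14, adjusted p = 0.903).

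Hspb1, the stress-inducible HSP27, varied more between libraries of a group than most genes of its level. Its within-group SD was 0.338 on the log2 scale, at percentile 94.6 of the 500 genes nearest in level, whose median was 0.147. The libraries numbered 1 were the lowest or near it, with 9.02 CPM untreated, 12.4 CPM with FSH21 and 13.8 CPM with FSH24, and FSH24 library 6 was at 12.5 CPM. The other 14 libraries were between 16.7 and 23.8 CPM. Hspb1 was not called in any comparison, with log2 fold changes of 0.01 and 0.03 at 10 ng/ml (SE 0.24 each).

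The same within-group deviations were taken for genes that respond to handling. Being measured from group means, they cannot show stress shared by a whole group. The median deviation of the 12 heat-inducible members from their group means lay between −0.09 and 0.08 on the log2 scale over the 18 libraries. For all tested genes it lay between −0.01 and 0.01. That range is no measure of what 12 genes would show, because scaling holds it near 0 and a median of few genes spreads more. For 10 early genes that tissue handling induces, such as Fos and Egr1, the median deviation lay between −0.22 and 0.45. In the libraries numbered 1 (FSH21, FSH24, untreated) it was 0.275, −0.04 and 0.45 for the early genes. For the heat-inducible members it was −0.09, −0.06 and −0.05 there. Handling stress itself was not tested. The summed CPM of these early genes was 176 to 228 in the untreated libraries 2, 3 and 4, 176 to 225 with FSH21 and 158 to 196 with FSH24, and 1 of the 10, Jun, was called with FSH21 and none with FSH24.

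At 1 ng/ml no member was called with either form, by edgeR or by DESeq2. Over all genes, 0.128% were called with FSH21 (0.0908% higher and 0.0374% lower) and 0% with FSH24. At an unadjusted p under 0.05 there were 5 members of 68 with FSH21 (7.35%, against 7.31% of all genes) and 0 with FSH24 (against 5.98%). DESeq2 called 0.593% of all genes with FSH21, where 3 members had no adjusted p, and 0.00534% with FSH24. The members whose FSH21 libraries 1, 5 and 6 lay apart from the untreated ones numbered 11 (16.2%, against 13% of all genes), and 4 did so with FSH24 (5.88%, against 10.3%). Hspa1a was at 27.95, 25.9 and 25 CPM with FSH21 against 21.2, 22.8 and 22.9 CPM untreated. The 3 FSH21 libraries were all higher, but the log2 fold change of 0.24 (SE 0.10) did not pass the test (adjusted p = 0.581). Hspe1 was at 45.2, 47.5 and 50.2 CPM with FSH21 and at 60.05, 55.8 and 58.1 CPM untreated, again without overlap, with a log2 fold change of −0.28 (SE 0.10, adjusted p = 0.484). For FSH24 the values of the same genes were 0.00 and 0.02.

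FSH21 and FSH24 were then compared directly, to ask whether glycosylation changed the response. No member was called at either dose by edgeR, and over all genes 0.0107% were called at 1 ng/ml and 0% at 10 ng/ml. At an unadjusted p under 0.05 there were 5 of 68 members at 1 ng/ml (7.35%, against 9.45% of all genes) and 2 at 10 ng/ml (2.94%, against 2.20%). DESeq2 called no member either, but gave 17 of the 68 no adjusted p at 1 ng/ml. It called 1.09% of all genes at that dose and 0.0267% at 10 ng/ml. The groups did not overlap for 6 members at 1 ng/ml (8.82%, against 14.9% of all genes) and for 5 at 10 ng/ml (7.35%, against 7.10%). For the 10 members called with FSH21 at 10 ng/ml, the log2 difference between the forms at that dose ran from −0.06 to 0.19. Every one of the 10 confidence intervals of 95% held 0, and their outermost bounds were −0.25 and 0.48. Hspb8 had the widest gap, 0.19 higher with FSH21 (interval −0.09 to 0.48), and Dnajc10 was 0.10 higher with FSH21 (interval −0.03 to 0.23). Hspa1b differed by 0.00 (interval −0.25 to 0.26) and Hspa1a by −0.01 (interval −0.21 to 0.20). Hspb8, Dnajb2 and Dnajb12 passed the threshold with FSH21 alone, and none of the 3 passed the test between the forms. At 1 ng/ml the intervals of 8 of the 10 members called with FSH21 at 10 ng/ml held 0. Those that did not were of Hspa1a (0.24, 0.04 to 0.45, adjusted p = 0.445) and of Hspd1, lower with FSH21 (−0.18, lower bound −0.36). Outside the 10, the interval of Hspe1 did not hold 0 either (−0.31, −0.52 to −0.09, adjusted p = 0.335).

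The dose comparison set each form's effect at 10 ng/ml, against its own untreated libraries, beside its effect at 1 ng/ml. In the main edgeR fit no member passed this test. At an unadjusted p under 0.05 there were 7 of 68 members for FSH21 (10.3%, against 7.02% of all genes) and 9 for FSH24 (13.2%, against 14.9%). Over all genes 0.272% were called for FSH21 and 2.45% for FSH24 (1.21% higher and 1.24% lower). For several of the 10 members called at 10 ng/ml the log2 difference was of the size of the effect itself. These members were chosen by their effect at 10 ng/ml, which enters the difference. Large differences among them, and intervals without 0, are therefore favoured by the choice and are no support for a dose effect. For FSH24 it was 0.62 for Hspa1b (interval 0.25 to 0.99, adjusted p = 0.0734), 0.45 for Hspa4l (0.19 to 0.70, adjusted p = 0.0578) and −0.37 for Hspd1 (−0.62 to −0.11, adjusted p = 0.134). For FSH21 it was 0.31 for Dnajc10 (0.13 to 0.49, adjusted p = 0.219) and 0.59 for Hspa2 (0.15 to 1.02, adjusted p = 0.461). Of the 10 intervals, 7 did not hold 0 for either form. DESeq2 called 0 members for FSH21, with 0.892% of all genes, and 3 for FSH24, Hspa1b, Hspa4l and Hspd1. Those 3 are 4.41% of the members, against 4.36% of all genes, and 6 members had no adjusted p for either form. With the counts of Hspa1a and Hspa1b added, edgeR gave a FSH24 dose difference of 0.51 (SE 0.12, adjusted p = 0.0325). The untreated groups, which enter these differences, had no called member between them, with 0% of all genes called by edgeR. At an unadjusted p under 0.05 there were 4 members (5.88%, against 5.45% of all genes), DESeq2 called 0 members and 1 gene (0.00534%), and the groups did not overlap for 6 members (8.82%, against 11% of all genes). Hspa1b was lower in untreated libraries 2, 3 and 4 than in 1, 5 and 6, where it was at 27.7, 31.6 and 33.6 CPM, by −0.30 on the log2 scale (SE 0.12, adjusted p = 0.901).

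**Figure D4:**
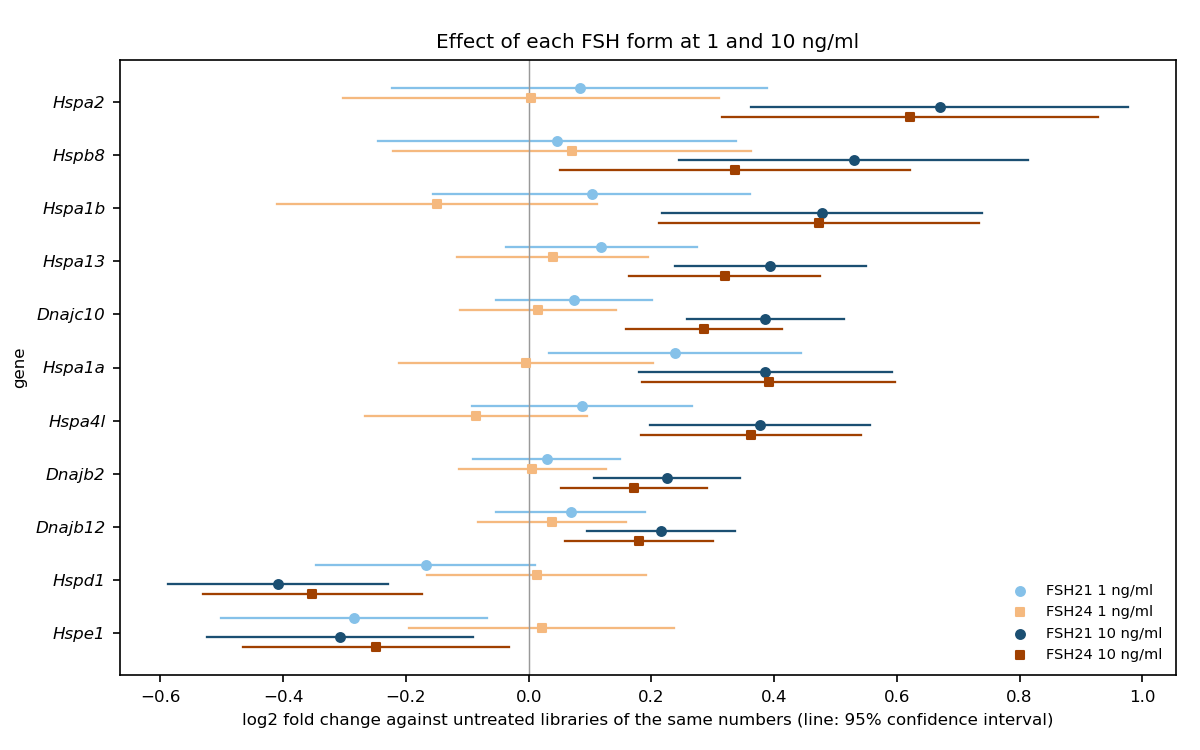
Log2 fold change (points) with its 95% confidence interval (lines) for the 10 called members and Hspe1, for each form and dose against untreated libraries of the same numbers. At 10 ng/ml the values above 0 lie between 0.17 and 0.67 and those of Hspd1 at −0.41 and −0.35, while most intervals at 1 ng/ml hold 0.

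Chaperone genes outside the rule were taken from a list of 50, all of them tested. With FSH21 at 10 ng/ml 1 rose and 4 fell, and with FSH24 2 rose and 3 fell. The 5 called are 10% of the list with each form, near the 10.2% and 8.42% of all genes. Cct4, a subunit of the cytosolic chaperonin that folds actin and tubulin, was at 221, 212 and 214 CPM untreated, 184, 179 and 177 CPM with FSH21 and 184, 189 and 179.6 CPM with FSH24. It fell with FSH21 (log2 fold change −0.26, SE 0.05, adjusted p = 0.00381) and with FSH24 (−0.23, SE 0.05, adjusted p = 0.0120), and both calls held without each library in turn. Its fellow subunit Cct5 fell with FSH21 (−0.22, SE 0.07, adjusted p = 0.0396). Cdc37, which brings kinases to HSP90, fell with both forms (−0.21 and −0.22, adjusted p = 0.0416 and 0.0336), as did Ppid, an HSP90-bound prolyl isomerase (−0.30 and −0.31, adjusted p = 0.0447 and 0.0461). Bag6, which guards newly made membrane proteins, rose with both forms (0.26 and 0.30, adjusted p = 0.0248 and 0.0107), and Bag3, the HSPB8 partner, rose with FSH24 (0.20, adjusted p = 0.0278). Apart from Cct4, each of these calls was lost without 2 to 5 of the 6 libraries, with adjusted p-values up to 0.216. The median log2 fold change of the 50 was −0.04 with FSH21 and −0.03 with FSH24. Of 5 further genes, heat shock factors and the factor-binding protein gene Hsbp1, 3 were tested and none was called.

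Promoter sequences of RefSeq (GRCm38.p6, 250 bases before to 50 after the start) were found for 57 of the 72 members. Hsp90aa1, Hsp90ab1, Hspa8, Hspa9, Hsf1 and the called Hspa13 are among those without a window and were not searched. A gene with several starts was counted once if any of its windows held a motif. A heat shock element of 3 units, spelled GAA NN TTC NN GAA or TTC NN GAA NN TTC on either strand, was present in 4 members (7.02%), against 0.662% of 27025 genes with a promoter window. The 4 were Hspd1 and Hspe1, which share the same stretch and are counted singly, Hsph1 and Dnajb6. Beside the Hspd1 and Hspe1 stretch above, those of Dnajb6 (chr5:29735844-29735872, plus strand) and Hsph1 (chr5:149636280-149636308, minus strand, 8 to 36 bases after a RefSeq start) are shown because neither gene was called, although both hold the element, with the cores of 2 units in capitals.
Dnajb6: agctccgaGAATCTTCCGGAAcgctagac
Hsph1: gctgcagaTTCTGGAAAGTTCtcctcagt
The core of 2 units, GAA NN TTC or TTC NN GAA, which every 3-unit element also holds, was present in 16 members (28.1%) and in 17% of all genes. Of the 9 members called at 10 ng/ml that had a window, 1 held the element and 5 the core, Hspa1a, Hspa1b, Dnajc10, Hspb8 and Hspd1. The near-identical promoters of Hspa1a and Hspa1b are counted singly here, and the core of Hspb8 lies after the start. The cAMP response element TGACGTCA, the site of the factor that protein kinase A activates below the FSH receptor, was found in 1 member (1.75%, against 2.03% of all genes) and in none of the 9. The CCAAT box, read as CCAAT or ATTGG, was found in 24 members (42.1%, against 41.1%). The endoplasmic reticulum stress element, CCAAT and CCACG with 9 bases of any kind between them on either strand, which itself opens with a CCAAT box, was found in Dnajc3 and Hsp90b1 (3.51%, against 0.137%), neither of which was called. A match describes the letters of the window alone, and only exact spellings were counted, so a repeat with a changed base was missed.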

How the data were processed

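Messenger RNA libraries of 6 groups of 3 were sequenced, and the authors deposited 1 table of expected counts per gene, with the 4 lanes of a library merged in 1 column. Column headers mark the values as RSEM estimates. Per the submitters' processing notes, bcl2fastq, FastQC and STAR 2.7 were used with build mm10. The RSEM version, annotation and use of strand are not given in the sources used here. Values were rounded to whole numbers first, and 33.9% of those above 0 had a fractional part.

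The low-count filter was filterByExpr of edgeR, set to groups and to at least 10 counts. The main test was edgeR 4.0.16 (R 4.3.3), quasi-likelihood with robust estimation, TMM scaling, all 18 libraries, no block, and Benjamini-Hochberg adjustment over 18727 genes. The coefficient of variation between libraries was 0.135, and genes of low count also carry counting error. CPM use TMM-scaled totals, and exon lengths and positions come from GENCODE M21 (GRCm38). Log2 deviations used a prior count of 2. DESeq2 1.42.0, RLE scaling, no filter, only the groups compared, the library number as a block and leaving out each library were the alternatives.

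Named were all called members, Hsf1, Hspa1a, Hspa1b, Hspa8, Hspa9, Hsph1, Hspb1, Dnajb1, Hspd1, Hspe1 and the HSP90 genes, the 3 highest of each class, and called chaperone genes outside the rule. Members and lists were chosen with earlier results of these data known, and other genes named were picked after their values were seen. Protein sequences were not used here.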

Additional observations from a re-analysis of the deposited data

Results flagged for a closer look

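Cct4, a subunit of the cytosolic chaperonin and not a member of the heat shock protein set, was the single gene of the members and of the other chaperone lists whose FSH24 effect differed between the doses by edgeR's test of the difference itself, in the fit of all libraries with the filter and no replicate block and with Hspa1a and Hspa1b counted singly. The effect at 10 ng/ml minus that at 1 ng/ml was −0.30 on the log2 scale (SE 0.08, adjusted p = 0.0494). Its log2 fold change was 0.07 at 1 ng/ml and −0.23 at 10 ng/ml. For FSH21 the same difference was −0.22 (SE 0.08, adjusted p = 0.466). Without each of the 12 libraries in turn the call was lost for 10, with adjusted p-values up to 0.109, and DESeq2 gave −0.31 (adjusted p = 0.00272).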

How the results depend on the processing

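No called result changed its direction under the alternatives run. RLE scaling called 10 members with FSH21 and 7 with FSH24 at 10 ng/ml, all of them called under TMM. DESeq2 called 15 and 8, with 12.3% and 10.4% of all genes. The fit without a filter called 9 and 7, with 4.51% and 3.77% of 36330 genes, and the fit of only the groups compared 9 and 6, with 10% and 6.54% of its genes. For the dose difference of FSH24, where edgeR called 0 members, DESeq2 called 3 (4.36% of all genes) and the fit without a filter 2 (1.25%). Leaving out 1 library at a time gave 5 to 9 members with FSH21 and 3 to 7 with FSH24 at 10 ng/ml, 0 to 2 for the FSH24 dose difference, and 0 in every other comparison. The cause of these shifts was not tested.

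Library number was added as a replicate block in another fit. Within-group deviations of same-numbered libraries correlated with a median of 0.294 over 18 pairs (−0.0589 to 0.575, 14 of them over 0.1), against −0.119 over 36 pairs of different numbers, and 14 of 18 libraries correlated best with one of their own number. The labels do not say what a number marks and not every pair passed 0.1, so the block was not made the main fit. With this replicate block 16 members were called with FSH21 (12 higher, 4 lower) and 11 with FSH24 (8 higher, 3 lower) at 10 ng/ml, and 3, Hspa1b, Hspa2 and Hspa4l, for the FSH24 dose difference. Of all genes, 15%, 13.6% and 6.3% were called in these comparisons. The block added Hspa8, Hspe1 and Hspa12a, lower, and Dnajb5, Hspb11 and Hspa14, higher, with FSH21, and Dnajb12 and Hspb6, higher, and Hspa8 and Dnajc21, lower, with FSH24. It kept all 10 and all 7 calls of the fit without a block and changed no other count of members. The block cannot be fitted between the untreated groups. Members near the filter, such as Hspa1l at 1.21 CPM (SE 0.39 for FSH21 at 10 ng/ml on the log2 scale), could not show changes of the size called in other members.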
